A study of Mus musculus with 12 samples.

Results

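The comparison of 92Q with wild-type mouse cerebellum at 12 weeks of age covered 7660 of 7667 named genes. A gene was included when its value reached 5 or more in one or both of the 12-week columns. Of these, 3919 had a mean of 22 or more over both columns, and the results below are about them unless stated otherwise. The study took cerebella from fxSCA7 92Q mice, a model of spinocerebellar ataxia type 7 carrying 92 CAG repeats, and from wild-type littermates. Both genotypes were sampled at 12 and 29 weeks, with 3 libraries for every genotype and age, and a library pooled cerebella of 3 mice. The sources used here do not give the promoter of the 92Q allele, the strain or the sex of the mice. The authors deposited 1 value per gene and condition, a whole-number normalized score of unstated unit, so the 6 libraries at 12 weeks are seen only as a pair of condition values. No spread between libraries can be computed, no difference below has a replicate check, and "lower" or "higher" means only that the 92Q value lay below or above the wild-type value. The depth behind the scores is unknown. The values of Atxn7 are not analysed here and were no check of the labels.

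Spinocerebellar ataxia type 7 is caused by an expanded CAG repeat in the gene of ataxin-7, a subunit of the SAGA transcriptional co-activator complex, and it leads to degeneration in the cerebellum and retina. Purkinje cells are the sole output neurons of the cerebellar cortex. They receive glutamate from very numerous granule neurons and translate it into calcium signals through metabotropic receptors, a Gq-type G protein, phospholipase C and the inositol trisphosphate receptor of the endoplasmic reticulum (ER), which is both the calcium store and the site where secreted and membrane proteins fold. In whole cerebellum, fewer cells of a type and less RNA per cell cannot be told apart.

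The 12-week columns also differed in tissue and sex markers. Choroid plexus genes stood far apart, with Ttr, which encodes transthyretin, at 336 in wild type and 6 in 92Q. All 3 choroid plexus markers at a mean of 22 or more were lower (log2 ratios from -5.59 to -0.21), as were all 3 meningeal ones (-0.30 to -0.07), and Igf2, at 51 and 44, is on both lists. Of the sex-linked transcripts, Ddx3y and Eif2s3y were listed at 0 in wild type and at 9 and 12 in 92Q, and Xist was 66 and 30. The part of sex and of attached choroid plexus and meninges in the small shifts below was not tested.

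Differences at 12 weeks were small. Over the 3919 genes the median log2 ratio of 92Q to wild type, computed with 1 added to each value, was 0.00, and 91.0% of genes lay within 1.1-fold. Values were equal for 761 genes, lower in 92Q for 45.9% and higher for 34.7%. At least 1.1-fold lower were 279 genes (7.12%), and at least 1.1-fold higher were 73 (1.86%). At least 1.5-fold lower were 7 genes (0.179%), and at least 1.5-fold higher were 2 (0.0510%), beside 13 (0.170%) and 6 (0.0783%) of the 7660 genes of any mean. Of these 9 genes at a mean of 22 or more, 6 are noncoding or ribosomal RNAs other than Xist: AF357426 was 309 in wild type and listed at 0 in 92Q, DQ267102 was 206 and 71, Rmrp 40 and 7, Rn45s 283 and 159, AF357399 29 and 75, and AF357425 83 and 171. The others were Xist, Ttr and Enpp2, the last at 92 and 45. Below that mean, Rpph1, the RNA of RNase P, was 25 and 6. The part of such RNAs in the shift of short transcripts described next was not tested. Rounding to whole numbers alone allows a log2 error of 0.06 for a gene at 22, so the ratio of a single gene near that value is coarse. The balance of small differences also rests on the scaling. Upper quartile scaling raised the median of all genes to 0.03 and gave 169 genes at least 1.1-fold lower and 184 higher, quantile normalization gave 118 higher, and centring on genes of like transcript length gave 162 lower.

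**Figure D1:**
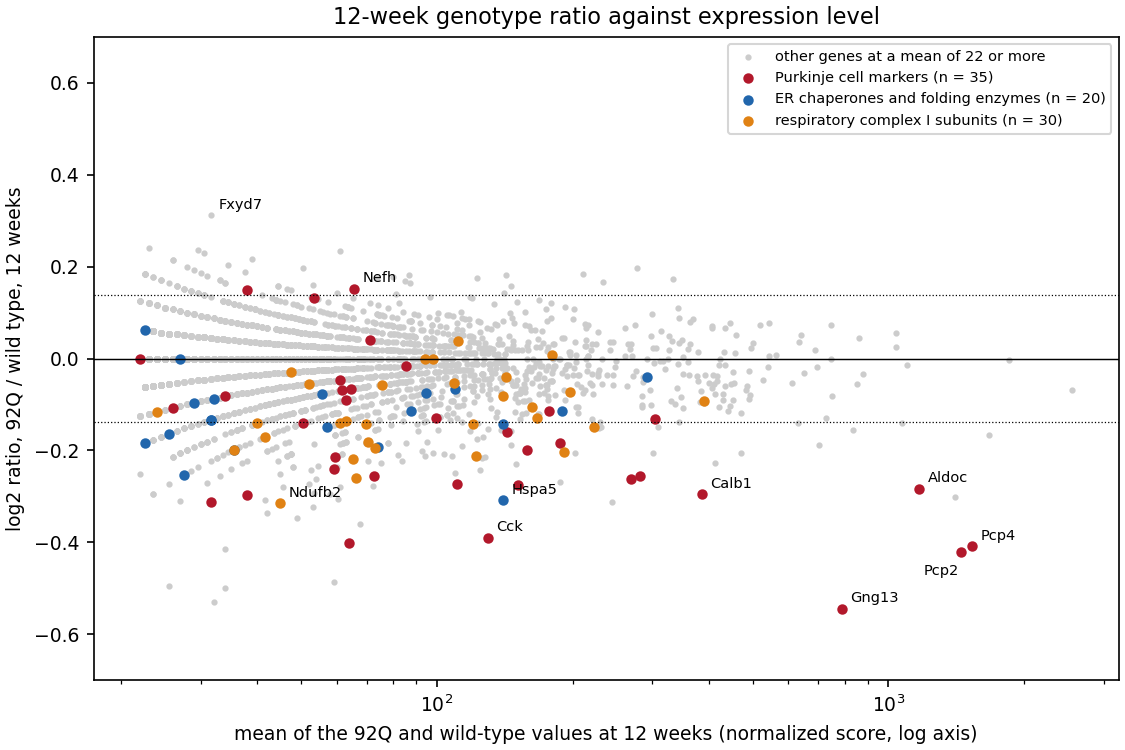
Log2 ratio of 92Q to wild type at 12 weeks (vertical axis) against the mean of both values on a log axis, with 1 point per gene at a mean of 22 or more. Coloured points are Purkinje cell markers, ER chaperones and respiratory complex I subunits, and dotted lines mark 1.1-fold. Most points lie between the dotted lines, the Purkinje genes Gng13, Pcp2 and Pcp4 lie far below them, and 9 genes beyond 0.7 in either direction are not drawn.

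The shifts followed transcript length. Lengths were those of the longest protein-coding transcript in GENCODE M21, which gave a length for 3861 of the genes (98.5%). Among 98 genes of up to 750 bases, 88.8% were lower in 92Q and the median log2 ratio was -0.11. With each longer class the median came closer to 0: it was -0.09 up to 1000 bases, -0.06 up to 1500, -0.04 up to 2000 and -0.01 up to 3000. It was 0.00 in both classes between 3000 and 6000 bases, and 0.04 above 6000 bases, where 17.6% of 499 genes were lower and 64.1% higher. Across these genes, which share the same libraries and are not independent, Spearman's rho between length and ratio was 0.43. At 29 weeks the order was the opposite, with a median of 0.10 for the shortest class and 0.00 for the longest, and rho was -0.28. Genes of higher score also leaned lower, with a median of 0.00 for means of 22 to 50 and -0.03 from 200 upward. Families of short transcripts are therefore given below beside the median, over their members, of the medians of the members' length classes. These class medians include the family members themselves, so centring on them can take away part of a family's own shift. The part of length in their shifts was not tested.

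**Figure D2:**
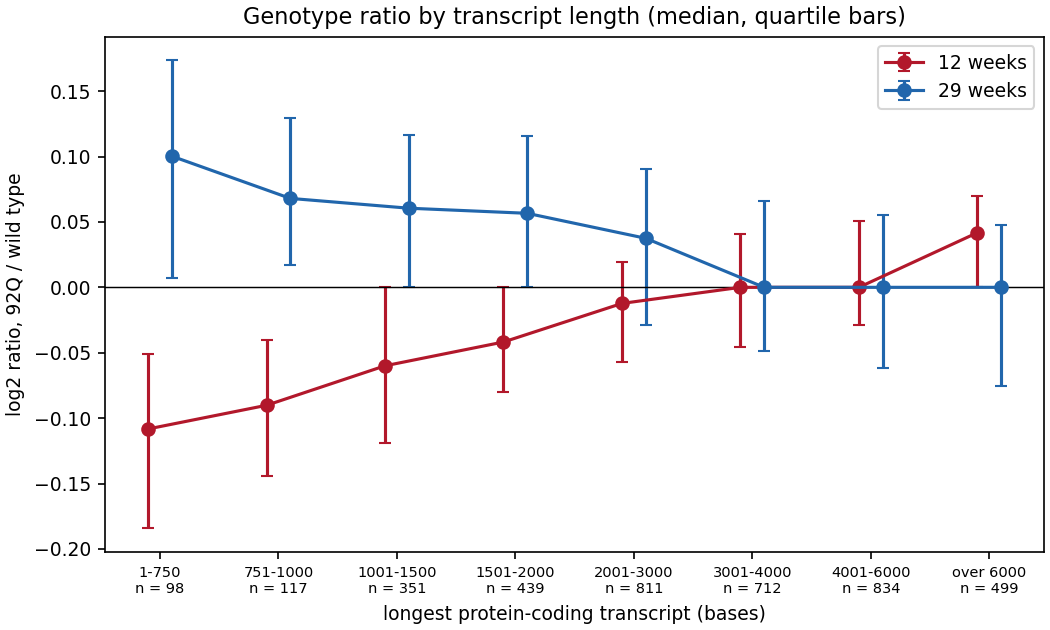
Median log2 ratio of 92Q to wild type (vertical axis) by length of the longest protein-coding transcript (horizontal axis, bases), at 12 weeks in red and 29 weeks in blue. Bars reach from the lower to the upper quartile of genes and n is the number of genes. At 12 weeks the medians climb from -0.11 to 0.04 with length, and at 29 weeks they descend from 0.10 to 0.00.

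Of 79 gene families and lists, 73 had 3 or more genes at a mean of 22 or more. Their median ratio was below 0 in 43, equal to 0 in 15 and above 0 in 15. In 4 of them the median was at least 1.1-fold lower, and the highest median was 0.04. The lowest medians over 5 or more members belonged to Purkinje cell markers at -0.18, large ribosomal subunit proteins at -0.14, respiratory complex I at -0.13, ER chaperones at -0.12 and the 20S proteasome at -0.12. The sign held under upper quartile, median ratio and quantile scaling and after length centring for 28 families below 0 and 14 above 0, and it changed or was 0 in one or more of these for the other 31. No test was made between families, and none is called particular for its median. The counts of lower and higher members below stand beside 45.9% lower and 34.7% higher among all genes.

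**Figure D3:**
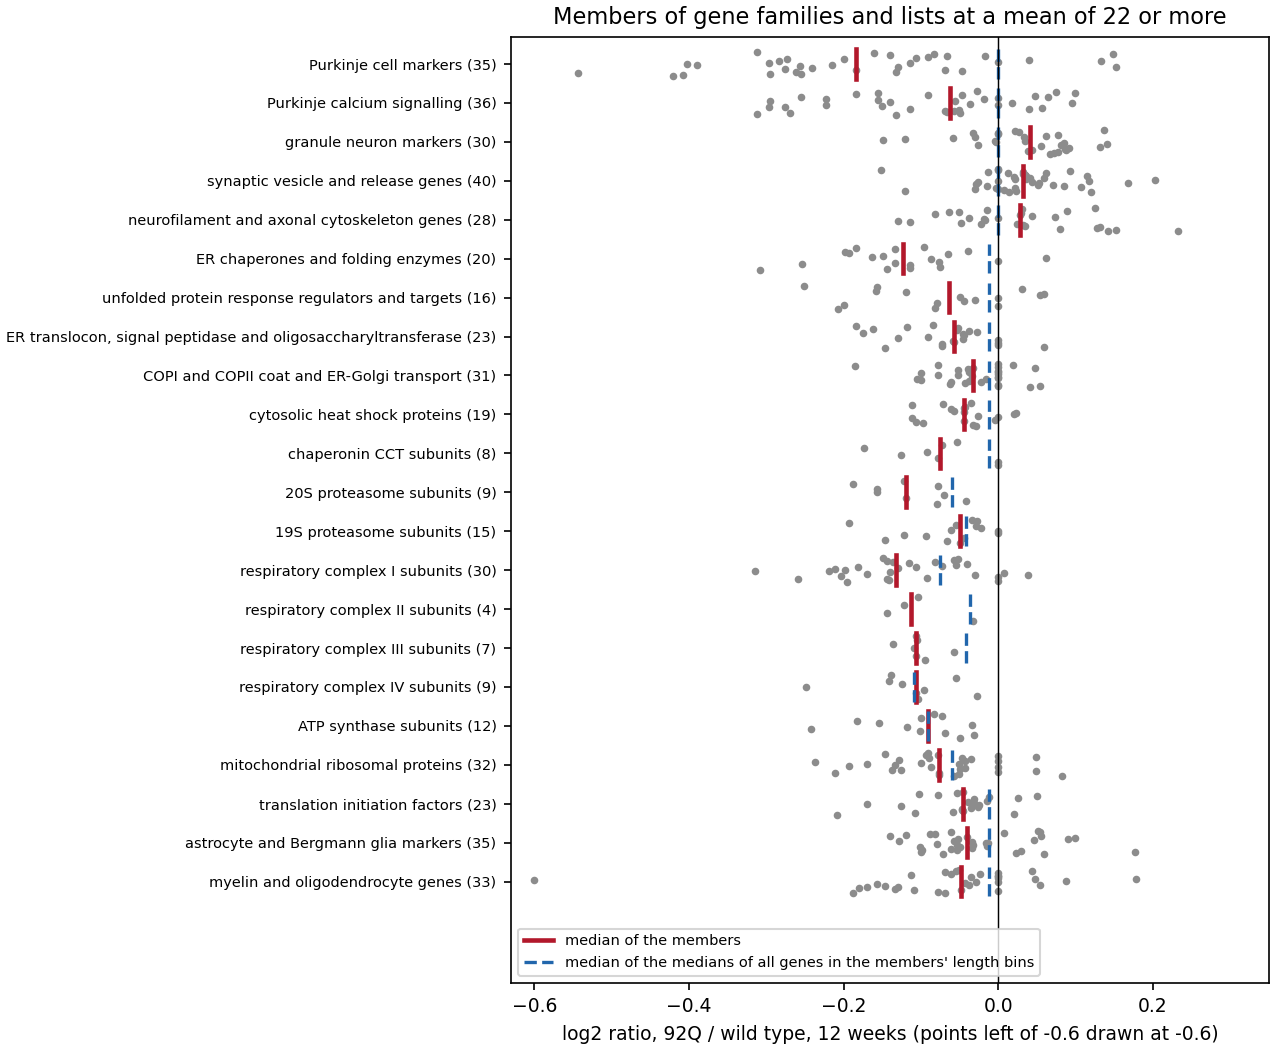
Log2 ratio of 92Q to wild type at 12 weeks for each member (grey points) of 22 gene families and lists, with the number of members in parentheses. Red bars are the members' medians. Blue dashed bars are the medians, over the members, of the medians of their length classes, which include the members. For Purkinje markers and ER chaperones the red bar lies well left of the blue, at -0.18 and -0.12, whereas for respiratory complex IV and ATP synthase both bars nearly coincide.

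Purkinje cell genes were lower in 92Q as a group. Of 38 measured markers, 35 had a mean of 22 or more, of which 30 were lower in 92Q, 4 higher and 1 equal, and 20 were at least 1.1-fold lower. The median ratio was -0.18 before and after length centring and -0.12 after quantile normalization, and 29 of the 35 lay below the median of their own length class. Wild type at 12 weeks was the highest of the 4 conditions for 27 of the 35 markers, against 30.3% of all genes. Only a gene lower in 92Q at 12 weeks can be counted here, so this partly repeats the direction above. The 30.3% are 1189 genes, all of them among the 1800 lower in 92Q. The list was chosen with earlier results of these data known.

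The lowest ratios among them were those of Gng13, Pcp2 and Pcp4. Gng13, a gamma subunit of heterotrimeric G proteins (mm10 chr17:25717171-25719406, + strand), was 935 in wild type and 641 in 92Q (log2 ratio -0.54). Pcp2, a Purkinje-specific modulator of Gi and Go proteins (chr8:3623371-3625545, - strand), was 1661 in wild type and 1241 in 92Q (-0.42). Pcp4, a small regulator of calmodulin (chr16:96467606-96525793, + strand), was 1749 and 1318 (-0.41). These 3 lay further below wild type than the other markers did, and at 29 weeks their ratios were lower still, at -0.97, -0.60 and -0.76. Cck, the neuropeptide cholecystokinin, was 147 in wild type and 112 in 92Q (-0.39). Fam107b was 73 and 55 (-0.40), a ratio close to that of Pcp4. Aldoc, the glycolytic enzyme aldolase C that marks zebrin stripes of Purkinje cells and is also made by astroglia, was 1284 and 1055 (-0.28).

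Within the calcium pathway the members did not move alike. At the G protein and phospholipase step, Gnaq and Plcb4 were close to wild type, whereas the gamma subunit Gng13, given above, was at -0.54. The Gq subunit Gnaq was 76 in wild type and 73 in 92Q (-0.06), and Plcb4, a phospholipase C of Purkinje cells, was 70 and 72 (0.04). The following proteins that hold, pass on or end the signal lay lower. Homer3, a postsynaptic scaffold bound to the inositol trisphosphate receptor, was 166 and 137 (-0.28). Itpka, a kinase of inositol trisphosphate, was 35 and 28 (-0.31), and the phosphatase Inpp5a, which removes a phosphate from the same messenger, was 205 and 170 (-0.27). The receptor Itpr1 itself was 318 and 290 (-0.13), and Car8, a protein that lowers its affinity for inositol trisphosphate, was 307 and 257 (-0.26).

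Calcium buffers and ER pumps were lower, and plasma membrane pumps were near wild type. Calb1, the buffer calbindin, was 426 in wild type and 347 in 92Q (-0.30). Pvalb, the buffer parvalbumin shared with interneurons, was 878 and 788 (-0.16). The ER calcium pump Atp2a3 was 76 and 65 (-0.22) and the more widely made Atp2a2 was 241 and 217 (-0.15). Of the plasma membrane pumps, Atp2b2 was 159 and 155 (-0.04), Atp2b1 was 34 in both and Atp2b3 was 79 and 80 (0.02). Over the whole list of Purkinje calcium signalling genes, 26 of 36 members were lower and 8 higher, with 13 at least 1.1-fold lower, none at least 1.1-fold higher and a median of -0.06. Of the 36, 14 are also among the Purkinje markers. Cacna1a, the pore of the P/Q-type calcium channel, was on the other side at 72 and 77 (0.10).

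Purkinje genes with other roles were also lower in the following examples. Dner, a Notch ligand of the Purkinje cell surface, was 169 in wild type and 147 in 92Q (-0.20). Slc1a6, the glutamate transporter EAAT4 of Purkinje dendrites, was 79 and 66 (-0.26). Icmt, the enzyme that methylates prenylated proteins such as G protein gamma subunits, was 121 and 100 (-0.27). These 3 were at least 1.1-fold lower. The phosphatase inhibitor Ppp1r17 was 199 and 175 (-0.18). Rora, a nuclear receptor needed for Purkinje maturation, was 65 and 61 (-0.09). At 29 weeks all 5 were at least 1.1-fold lower, from -0.35 for Rora to -0.63 for Icmt.

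Genes of other inherited ataxias were read from a list that overlaps the Purkinje genes. Of 25 at a mean of 22 or more, 13 were lower and 8 higher, with a median of -0.04 that became 0.00 after quantile normalization. Among the lower ones were the Purkinje genes Car8 and Itpr1, given above. The highest was Syne1, a very long nuclear envelope gene, at 133 and 151 (0.18). In the authors' deposited table of 99 genes, whose values were the same as in the full table, 56 genes had a mean of 22 or more at 12 weeks. Of these 52 were lower in 92Q and 1 was higher, 45 were at least 1.1-fold lower, and the median ratio was -0.26. These genes come from the same samples, so their direction is no independent evidence.

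Markers that stood against the rest of the Purkinje list were Nefh, the heavy neurofilament subunit, at 62 in wild type and 69 in 92Q (0.15), Tmem255a at 36 and 40 (0.15) and the transcription factor En2 at 51 and 56 (0.13). En2 and Nefh are also made by other cerebellar neurons. Lhx1, a transcription factor of Purkinje cells, was 22 in both.

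In several families of otherwise even values 1 member lay below the others. These families were chosen after their values were seen. Among 16 G protein subunits at a mean of 22 or more, the median was -0.02, and 0.01 after upper quartile scaling, yet Gng13 was at -0.54. The next lowest, Gng11, was 38 and 33 (-0.20), and Gnas was 1032 and 1050 (0.02). Rgs8, a GTPase-activating regulator concentrated in Purkinje cells, was 294 in wild type and 245 in 92Q (-0.26), against -0.01 to 0.04 for the other 4 RGS genes. Tuba8, an alpha tubulin, was 46 and 37 (-0.31), whereas the other 6 tubulins lay between 0.00 and 0.05. Ywhah, the eta form of the 14-3-3 adaptor proteins, was 50 and 41 (-0.28), against -0.09 to 0.01 for the other 5. At 29 weeks the same 4 genes were again the lowest of their families, at -0.97, -0.76, -0.66 and -0.50.

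**Figure D4:**
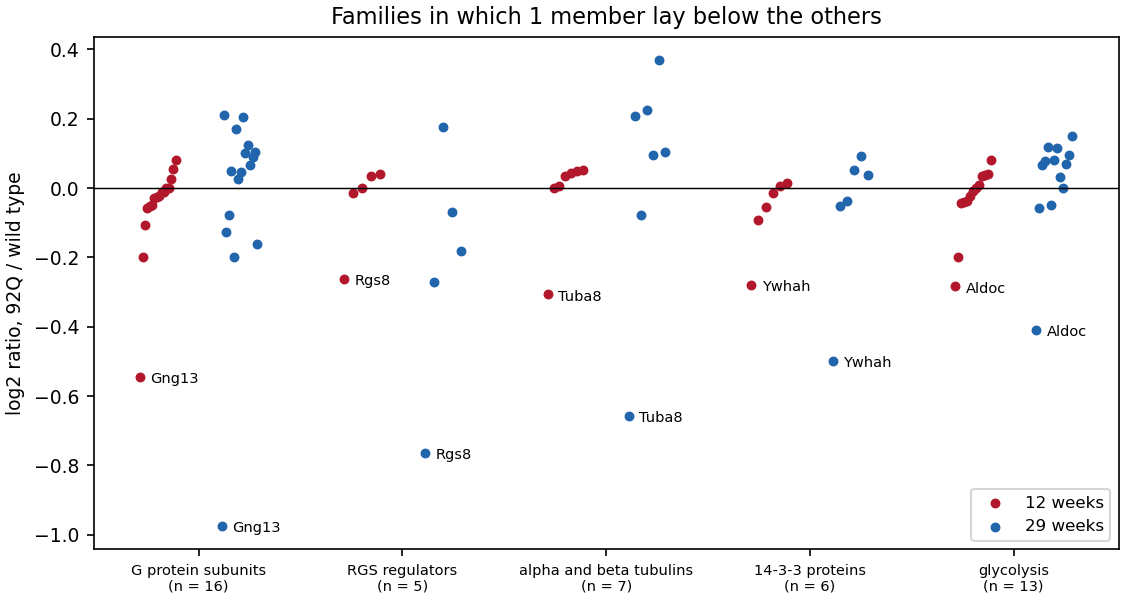
Log2 ratio of 92Q to wild type (vertical axis) for each member at a mean of 22 or more of 5 gene families (horizontal axis), at 12 weeks in red and 29 weeks in blue, with 1 point per gene. Gng13, Rgs8, Tuba8, Ywhah and Aldoc are labelled and are the lowest member of their family at both ages.

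Ion channel families as a whole lay close to 0. The median was -0.02 over 24 potassium channel genes (0.02 after upper quartile scaling), 0.03 over 10 calcium channel genes and 0.00 over 5 sodium channel genes. Among them, Kcnab1, a potassium channel beta subunit on the Purkinje list, was 64 in wild type and 55 in 92Q (-0.21), and Kcnd2, the A-type channel of granule neurons, was 77 and 85 (0.14). Cacna1g, the T-type calcium channel, was 53 and 48 (-0.14), and Cacna1e, the R-type channel, was 21 and 25 (0.24).

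ER chaperones and folding enzymes were lower together. Of 31 measured genes 20 had a mean of 22 or more, of which 18 were lower, 1 higher (Dnajb9, 22 in wild type and 23 in 92Q) and 1 equal (Txndc5, 27 in both). The count at least 1.1-fold lower was 8 of 20, none was at least 1.1-fold higher, and the median of -0.12 became -0.09 both after upper quartile scaling and after length centring. Wild type at 12 weeks was the highest of the 4 conditions for 17 of them, against 30.3% of all genes. It was also the highest for 23 of 32 mitochondrial ribosomal proteins and 7 of 9 subunits of the 20S proteasome, but for 6 of 30 granule neuron markers. Only genes lower in 92Q at 12 weeks can be counted, so these counts partly repeat the direction of each list. At 29 weeks the median of the same genes was 0.00, with 9 lower and 7 higher, beside a median of 0.02 for all genes. The 3 at least 1.1-fold lower there were Hspa5 (-0.24), Manf (-0.27) and Erp29 (-0.27), and 2 were at least 1.1-fold higher.

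Many chaperone genes are induced under ER stress through the ER stress response element, which consists of CCAAT and CCACG separated by 9 bases and is read by ATF6 and XBP1 together with NF-Y. The element was searched on both strands in RefSeq promoter windows from 250 bases before to 50 bases after the start of each gene (build GRCm38.p6). It was found in 37 of 27025 promoters (0.137%) and in 6 of 2976 promoters of genes at a mean of 22 or more (0.202%). Of 26 ER chaperone promoters, 7 held it (26.9%): Hspa5, Hsp90b1, Calr, Canx, Pdia6, Dnajc3 and Creld2. A match describes letters, not a bound site. The 6 genes at a mean of 22 or more are shown because all 6 were lower in 92Q, beside 45.9% of all genes. All but Syvn1 are on the ER chaperone list, of which 18 of 20 were lower, so their direction repeats that count. Whether the element has a part in the shift was not tested. Each line gives the element with 10 bases on either side, read 5′ to 3′ on the strand of the gene, and capitals mark both parts of the element, which appear as CGTGG and ATTGG where it lies on the opposite strand.
Hspa5: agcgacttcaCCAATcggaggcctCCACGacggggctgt
Hsp90b1: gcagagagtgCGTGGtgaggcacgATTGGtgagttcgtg
Calr: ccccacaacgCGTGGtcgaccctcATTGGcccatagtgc
Canx: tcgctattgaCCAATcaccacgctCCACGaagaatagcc
Pdia6: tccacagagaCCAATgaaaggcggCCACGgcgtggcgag
Syvn1: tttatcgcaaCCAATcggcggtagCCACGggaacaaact

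Hspa5 encodes BiP, the main Hsp70 of the ER lumen, and its element window is chr2:34772015-34772053 on the + strand, the element itself lying from 65 to 47 bases before the start. Its value was 155 in wild type and 125 in 92Q (log2 ratio -0.31), the lowest among these 6. Hsp90b1, the ER Hsp90 known as GRP94, has its first element from 107 to 89 bases before the start at chr10:86705523-86705561 on the - strand, and holds another one further upstream. It was 147 and 133 (-0.14). Calr, the calcium-binding chaperone calreticulin, has its window at chr8:84847065-84847103 on the - strand and was 197 and 182 (-0.11). Pdia6, a disulfide isomerase, was 33 and 30 (-0.13), with its window at chr12:17266481-17266519 on the + strand. The membrane chaperone Canx was 97 and 92 (-0.08), at chr11:50325790-50325828 on the - strand. Syvn1, a ubiquitin ligase of ER-associated degradation, was 32 and 31 (-0.04), a difference of 1 unit, at chr19:6046522-6046560 on the + strand. Over all measured levels 10 tested genes held the element, of which 8 were lower and Pan2 (13 and 14) and Adcy3 (8 and 9) were higher by 1 unit. These 10 include the 6 shown above.

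Outside the element's genes, families of chaperones differed. Pdia4, a disulfide isomerase whose promoter window held no such element, was 30 in wild type and 25 in 92Q (-0.25). Manf, a secreted ER stress protein, was 38 and 33 (-0.20). Erp29 was 79 and 69 (-0.19). Among regulators and targets of the unfolded protein response, 11 of 16 were lower and 3 higher (median -0.06). At 29 weeks 10 of the same 16 were lower and 5 higher (median -0.05). At 12 weeks the single genes were as follows. The transcription factor Xbp1 was 111 and 96 (-0.21), Ddit3, which encodes CHOP, was 30 and 26 (-0.20), Atf4 was 181 and 171 (-0.08), and Atf6b, a relative of the stress sensor ATF6, was 29 in both. The shift was smaller along the secretory route. The translocon, signal peptidase and oligosaccharyltransferase genes had a median of -0.06 with 19 of 23 lower, and the COPI and COPII group one of -0.03 that became 0.00 after upper quartile scaling. Heat shock proteins of the cytosol and mitochondria and their partners had a median of -0.04 with 16 of 19 lower, among them Hspa8 at 45 and 42 (-0.10), and the CCT chaperonin had a median of -0.08 with 6 of 8 lower and none higher. The Hsp40 family did not share this, with 9 of 18 lower, 7 higher and a median of -0.01, which was 0.03 after upper quartile scaling.

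Nuclear genes of oxidative phosphorylation were lower in every complex at 12 weeks, as short transcripts were in general. In complex I, 26 of 30 subunits were lower and 2 higher, and 14 were at least 1.1-fold lower. The median was -0.13, against -0.08 for the median over the length classes of its members. After length centring the complex I median was -0.06. All 4 subunits of complex II were lower (median -0.11, and -0.06 after length centring), as were all 7 of complex III (-0.11 and -0.05), all 9 of complex IV (-0.11 and -0.01) and all 12 of ATP synthase (-0.09 and -0.02). For complex IV the median over the length classes of its members was also -0.11. These classes hold the subunits themselves, so the comparison is partly one of the subunits with themselves. Under upper quartile scaling the medians remained below 0, from -0.06 in ATP synthase to -0.10 in complex I. At 29 weeks the medians of all 5 complexes were above 0, between 0.07 in complex IV and 0.12 in complex III.

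Single subunits show the size of these differences. Ndufb2, an accessory subunit of complex I, was 50 in wild type and 40 in 92Q at 12 weeks (log2 ratio -0.31), and 39 and 41 at 29 weeks. Ndufa3, which had the highest score of the complex, was 402 and 377 (-0.09). Cox6c, a small subunit of complex IV, was 119 and 100 (-0.25) at 12 weeks and 93 and 109 at 29 weeks. Atp5e, the epsilon subunit of ATP synthase, was 135 and 114 (-0.24) and then 101 and 125. In all 3 of Ndufb2, Cox6c and Atp5e the genotype order was thus the opposite at 29 weeks. Between the ages the wild-type value fell in all 3, by more than the 92Q value rose. Wild type at 12 weeks was the highest of the 4 conditions for 25 of 30 complex I subunits, against 30.3% of all genes. It was so for all 9 of complex IV and 11 of 12 of ATP synthase. Only genes lower in 92Q at 12 weeks can be counted, so these counts partly repeat the 12-week direction. Some subunits were closer to wild type at 12 weeks, such as Sdha at 134 and 131 (-0.03) and Atp5b at 657 and 643 (-0.03). Sdhb, of the same complex as Sdha, was 83 and 75 (-0.14). Citric acid cycle and pyruvate dehydrogenase genes had 11 members lower and 10 higher, with a median of -0.02 (0.01 after upper quartile scaling).

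Ribosomal and proteasome subunits and translation initiation factors were mostly lower, and the other families of protein synthesis and degradation given here were near 0. All 6 large ribosomal subunit genes at a mean of 22 or more were lower (median -0.14), led by Rplp1, an acidic stalk protein, at 76 in wild type and 59 in 92Q (-0.36). All 5 small subunit genes were lower (median -0.10), and mitochondrial ribosomal proteins were lower in 25 of 32 (median -0.08). After length centring these medians were -0.10, -0.04 and -0.01. In the 20S proteasome, the proteolytic core, all 9 subunits were lower, from Psmb6 at 40 and 35 (-0.19) to Psma2 at 34 and 33 (-0.04), with a median of -0.12 that became -0.06 after length centring. In the 19S cap 13 of 15 were lower and none higher (median -0.05, and -0.01 after length centring). At 29 weeks none of the 6 large subunit, 5 small subunit or 9 core proteasome genes was lower. Translation initiation factors were lower in 20 of 23, with a median of -0.05, which was -0.03 after length centring and -0.01 after upper quartile scaling. Elongation factors were lower in 2 and higher in 2 (median -0.01, and 0.02 after upper quartile scaling). Aminoacyl-tRNA synthetases of the cytosol had a median of -0.02, which was 0.01 after upper quartile scaling. Ubiquitin-conjugating enzymes (7 lower and 5 higher) and ubiquitin-specific proteases (5 lower and 7 higher) both had a median of 0.00. Lysosomal genes were higher in 13 of 26 and lower in 8, with a median of 0.01.

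Granule neuron and synaptic genes stood slightly on the other side. Granule neuron markers were higher in 20 of 30 and lower in 8, with a median of 0.04 that was the same after length centring. Of all genes 34.7% were higher and 45.9% lower. The markers had a median length of 4736.5 bases, and of all genes of 4001 to 6000 bases 46.6% were higher and 30.6% lower. Kcnd2 and Fat2, a cadherin of granule neurons at 62 in wild type and 68 in 92Q (0.13), were among the higher ones, and Calb2, the calcium buffer calretinin, was the lowest at 325 and 293 (-0.15). At 29 weeks 18 of the 30 granule neuron markers were lower and 10 higher, with a median of -0.06. Synaptic vesicle and release genes were higher at 12 weeks in 28 of 40 and lower in 8 (median 0.03, and 0.04 after length centring). Only Doc2b, a calcium sensor of vesicle fusion, was at least 1.1-fold lower among these 40, at 39 and 35 (-0.15). Pclo and Rims1, scaffolds of the active zone, were 32 and 37 (0.20) and 80 and 90 (0.17). The 3 neurofilament subunits were higher together: Nefl was 134 and 148 (0.14), Nefm was 56 and 66 (0.23) and Nefh 0.15, and all 3 were also higher at 29 weeks (0.12, 0.29 and 0.14). Their wider list of axonal cytoskeleton genes had a median of 0.03, which was -0.01 after length centring.

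Beyond these lists, the largest ratio of a protein-coding gene on the higher side belonged to Fxyd7, a small regulator of the sodium pump, at 28 in wild type and 35 in 92Q (0.31). Pde1c, a calmodulin-dependent phosphodiesterase, was 27 and 32 (0.24), and Polr2a, the largest RNA polymerase II subunit, was 28 and 33 (0.23). Sez6, a neuronal membrane protein gene, was 36 and 42 (0.22). These are steps of 5 to 7 units at low values. On the lower side, Sgk1, a kinase induced by glucocorticoids, was 40 and 28 (-0.50), and Nrgn, the calmodulin-binding protein neurogranin, was 69 and 49 (-0.49). At 29 weeks both were higher in 92Q (0.21 and 0.11). Interneuron markers were higher in 6 of 10 and lower in 4, with a median of 0.04, the highest of the 73 families and lists. Among them, the peptides Npy at 55 and 43 (-0.35) and Sst at 59 and 48 (-0.29) were lower, while the GABA-synthesizing enzyme Gad2 was 50 and 54 (0.11).

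How many of the lower genes were lower at both ages differed with transcript length. The genotype ratios at 12 and 29 weeks share no column and no pool of mice. Of the 279 genes at least 1.1-fold lower at 12 weeks, 100 (35.8%) were also at least 1.1-fold lower at 29 weeks, which is 28.0% of the 357 genes lower there, against 9.11% of all genes. Of all genes at 29 weeks, 33.0% were lower by any amount, 52.0% were higher and the median ratio was 0.02. Among the 113 with transcripts over 2000 bases the share was 64.6% (73 genes), beside 10.3% of all genes that long, and their median ratio at 29 weeks was -0.31. Among the 69 of up to 1000 bases, 8.70% were at least 1.1-fold lower and 37.7% at least 1.1-fold higher at 29 weeks, beside 4.19% and 27.9% of all genes that short. Of the 73 genes at least 1.1-fold higher at 12 weeks, 26.0% were at least 1.1-fold higher at 29 weeks, against 10.2% of all genes. Over all 3919 genes the ratios at both ages had a Pearson r of 0.03 and a Spearman's rho of 0.08 across genes, which are not independent.

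**Figure D5:**
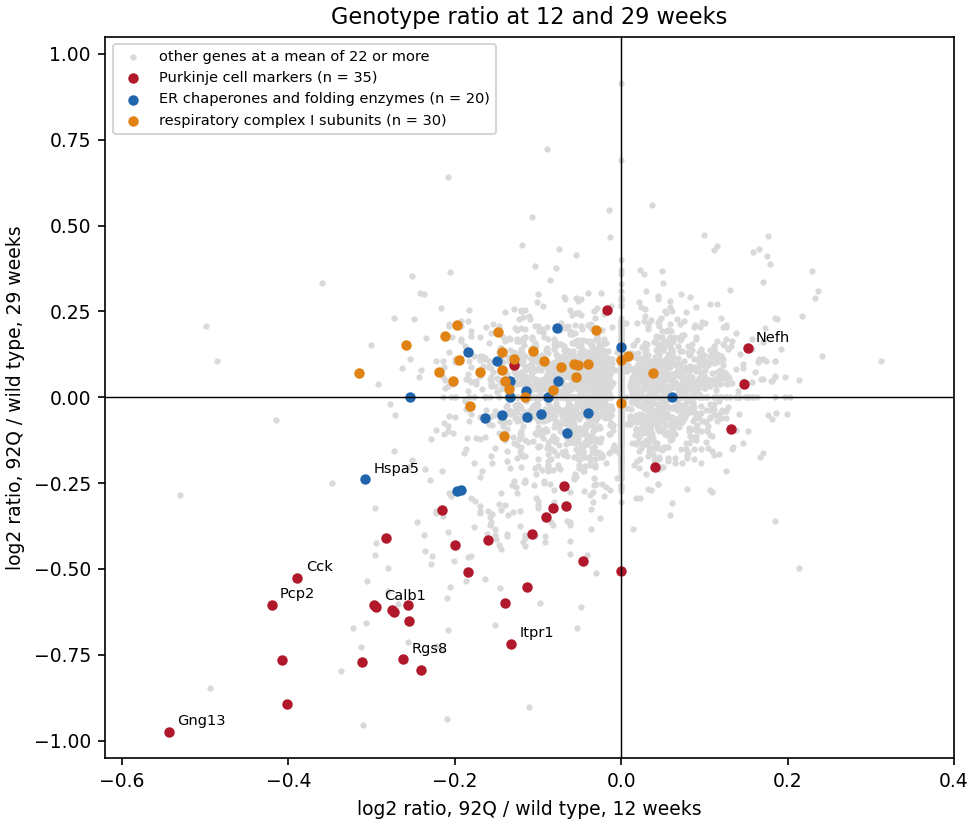
Log2 ratio of 92Q to wild type at 29 weeks (vertical axis) against that at 12 weeks (horizontal axis), with 1 point per gene at a mean of 22 or more. Purkinje markers reach into the lower left, with Gng13 at -0.54 and -0.97, 26 of 30 complex I subunits lie left of 0 and 26 lie above 0, with a 29-week median of 0.09, and 13 genes beyond the axes are not drawn.

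Of the 73 long genes lower at both ages, 26 were on the lists and 47 were on none. The following examples were chosen after their values were seen. Sbk1, a serine kinase, was 271 in wild type and 218 in 92Q at 12 weeks (-0.31), and 244 and 147 at 29 weeks (-0.73). Kctd12, an auxiliary subunit of GABA-B receptors, was 59 and 47 (-0.32), then 58 and 36 (-0.67). Nsg1, a neuronal endosomal protein, was 445 and 380 (-0.23), then 397 and 288 (-0.46). Enzymes of the lipid messenger diacylglycerol, made by phospholipase C, were among them: Dgkz, the kinase that removes it, was 217 and 188 (-0.21), and Dagla, the lipase that turns it into an endocannabinoid, was 36 and 31 (-0.21). The corresponding 29-week ratios were -0.55 and -0.59.

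Glial and other markers of the same columns give the setting. Astrocyte and Bergmann glia markers had a median of -0.04 with 24 of 35 lower, and myelin genes -0.05 with 22 of 33 lower, and both medians were -0.01 after upper quartile scaling. Of 3 microglial genes at a mean of 22 or more, C1qb and C1qc were equal and C1qa was 25 and 23. Among subunits of SAGA, the complex of ataxin-7, and of the general transcription factor TFIID, 4 of 9 were lower and 4 higher, with a median of 0.00.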

How the data were processed

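RNA of 12 cerebellar libraries, 3 per genotype and age, was isolated with TRIzol and RNeasy and sequenced as 50-base single reads, per the labels' protocols. Per the submitters' processing notes, the tools were Cuffdiff 1.3.0, Bowtie 0.12.7 and SAMtools 0.1.12a and the build was mm10, with no role stated for any. The deposited table holds a normalized score, 1 whole number per gene and condition, which the authors formed from 3 libraries. The sources used here do not give its unit, its normalization or the depth. Both 12-week columns had a median of 22, and their sums were 333581 (wild type) and 326547 (92Q).

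Of 7684 rows, 17 named by a bare number were left out. Log2 ratios were computed with a pseudocount of 1 for genes at 5 or more in either column. Medians and counts used genes at a mean of 22 or more and thresholds of 1.1-fold and 1.5-fold. With 1 value per condition no test was made. The members, 46 families, 33 lists and thresholds were chosen with earlier results of these data known, and 4 names that a family pattern had taken in wrongly were removed after the values were seen. Genes were named by rule: the 15 largest ratios in each direction, up to 6 members of a family by ratio and 4 by level, families of up to 12 whole, genes at least 1.5-fold apart, and examples said to be chosen afterwards. Other members named in the text were chosen for their role. Alternatives were other pseudocounts, minima, scalings, levels and, added after seeing the data, centring by transcript length. Python 3.11.15 with numpy 2.4.6 and pandas 2.3.3 was used, and the ratio step was tested on simulated data. Some genes are not reported here.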

Additional observations from a re-analysis of the deposited data

Results flagged for a closer look

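In 6 groups every member at a mean of 22 or more was lower in 92Q at 12 weeks and higher at 29 weeks. The median log2 ratio of large ribosomal subunit proteins was -0.14 at 12 weeks and 0.14 at 29 weeks. That of small ribosomal subunit proteins was -0.10 and 0.068, that of complex II subunits -0.11 and 0.11, and that of complex IV subunits -0.11 and 0.075. That of choroid plexus markers was -1.02 and 1.23, and that of meningeal markers was -0.21 and 0.43. The difference between ages was not tested, because each age has 1 value per genotype. The choroid plexus and meningeal groups each rest on 3 genes, and Igf2 is on both.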

How the results depend on the processing

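No paired analysis was possible because the table holds 1 value per condition, and for the same reason no replicate was left out. The counts of 13 and 6 genes of any mean at least 1.5-fold apart stayed within 1.5 times of these values under every alternative tried. For the 7 and 2 such genes at a mean of 22 or more no alternative was run.

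Counts at 1.1-fold were less stable. Beside 73 higher, there were 184 after upper quartile scaling, 118 after quantile normalization, 190 from a mean of 10 and 21 from a mean of 50. Beside 279 lower, there were 169 after upper quartile scaling, 162 after length centring, 467 from a mean of 10 and 130 from a mean of 50. Changing the mean changes how many genes are counted, and the cause of the other changes was not tested.

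Of the alternative values of family medians, 591 lay within 0.06 of the reported median, the rounding of a gene at 22, and 13 did not. Length centring gave -0.0616 for complex I, -0.0131 for complex IV, -0.0188 for ATP synthase, -0.0124 for mitochondrial ribosomal proteins and -0.0182 for metallothionein and iron-handling genes. Quantile normalization gave -0.1200 for Purkinje markers, -0.0386 for meningeal markers and -0.0208 for the metallothionein and iron group. With members of any mean, choroid plexus markers were at -0.5146 and immediate early genes at -0.1205. Without members shared with another list, immediate early genes were at 0.0531 and the metallothionein and iron group at 0.0000. From a mean of 50, SR splicing factors were at 0.0500. Of 587 ratios of single genes, 383 moved by more than their own rounding under upper quartile scaling and 287 under quantile normalization, against 29 with a pseudocount of 5, 7 with one of 0.1 and none under median ratio scaling. Of these genes only Ptgds, the prostaglandin D synthase of meninges, changed its direction while at least 1.1-fold apart, to 0.0646 after quantile normalization. The causes were not tested. The depth behind the scores is unknown, and rounding limits genes near 22.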

Other observations

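Antioxidant and thiol redox genes were lower in 17 of 22 and higher in 3 (median log2 ratio -0.09, and -0.04 after length centring), without any at least 1.1-fold higher. The glutathione transferases Gstm5, at 83 in wild type and 73 in 92Q (-0.18), and Gsta4, at 46 and 41 (-0.16), were among them, as was the peroxiredoxin Prdx6 at 78 and 70 (-0.15). Catalase (Cat) was on the other side at 28 and 30 (0.10). At 29 weeks the median of the list was 0.08, with 16 of 22 higher.

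X-linked genes known to be expressed from both X chromosomes of females lay below wild type in 92Q, in which Y-linked transcripts lay above it. They were chosen after the values were seen. Ddx3x was 52 in wild type and 44 in 92Q at 12 weeks (-0.24), and 51 and 44 at 29 weeks (-0.21), which places it among the long genes lower at both ages. Kdm6a was 15 and 12 at 12 weeks (-0.30) and Kdm5c 16 and 14 (-0.18), both under a mean of 22. Beside them, Xist was 66 and 30 at 12 weeks and 63 and 25 at 29 weeks, and Eif2s3y was 0 and 12, then 6 and 15.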
